A study of Mus musculus with 11 samples.

Results

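Messenger RNAs (mRNAs) encoded by mouse mitochondrial DNA were followed in the CA1 region of the hippocampus: mt-Nd1, mt-Nd2, mt-Nd4, mt-Nd5, mt-Nd6, mt-Co1, mt-Co2, mt-Co3, mt-Cytb and mt-Atp6. They were chosen by name as respiratory mRNAs, and are 10 of the 48709 gene identifiers in the deposited count tables and 10 of the 13 protein-coding genes of the mitochondrial chromosome. Of these, 7 had enough counts to be tested, and 3 did not (mt-Co2, mt-Co3 and mt-Atp6). They were compared between 6 RNA-seq libraries from CamkdeltaC transgenic mice and 5 libraries from littermate controls, all at 3 months of age. The transgene encodes the delta C isoform of the kinase CaMKII, and in this mouse model of heart failure a heart promoter drives the transgene, so CA1 is not the tissue in which it is expressed by design. Males and females were both included, with no sex given for a single library. CA1 was dissected under a microscope and frozen, and polyadenylated RNA was sequenced as single reads of 50 bases with a kit that does not mark the strand. The labels do not say that each library came from a separate animal, so the p-values measure the spread between libraries, which may be technical.

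Mitochondrial DNA encodes a small set of subunits of the respiratory chain, and the nucleus encodes the rest. The mt-Nd genes encode subunits of complex I (NADH dehydrogenase), mt-Cytb encodes cytochrome b of complex III, the mt-Co genes encode the catalytic core of complex IV (cytochrome c oxidase), and mt-Atp6 encodes a subunit of the proton channel of complex V (ATP synthase). Each strand is copied as a long precursor, which is cut at the transfer RNAs that lie between the messages, and most of the messages are then polyadenylated. Neurons rely heavily on this chain for the ATP that ion pumping and synaptic transmission use.

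Copies of mitochondrial DNA in the nuclear genome share long stretches with several of these mRNAs, and a 50-base read from such a stretch has no unique place of origin, so these sequences are shown first. All come from the GENCODE M21 transcripts of mm10 (GRCm38), read 5′ to 3′ on the coding strand, with positions counted from 1 at the 5′ end of the mitochondrial gene. A stretch of chromosome 1, chr1:24611535-24616197 on the minus strand, holds 7 annotated unprocessed pseudogenes that follow the mitochondrial order from mt-Co1 to mt-Nd4. Over their first 60 bases the messages of mt-Co2, mt-Atp6 and mt-Co3 are the same, base for base, as their copies Gm28661, Gm10925 and Gm28437, so no base is in capitals:
mt-Co2 and Gm28661: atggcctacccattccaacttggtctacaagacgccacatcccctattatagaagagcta
mt-Atp6 and Gm10925: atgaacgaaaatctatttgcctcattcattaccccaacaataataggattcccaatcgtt
mt-Co3 and Gm28437: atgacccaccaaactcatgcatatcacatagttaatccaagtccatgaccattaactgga
The identity runs on over all 681 aligned bases of mt-Co2, all 678 of mt-Atp6 and all 783 of mt-Co3.

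A pair of counted messages share only their 3′ or 5′ part with the copy on chromosome 1. In mt-Co1 the copy Gm29216 begins at base 1054, and the capitals mark the 6 bases at which it differs, T1056A, C1057T, A1059G, A1060G, C1062A and A1066T (mitochondrial base first, copy base last). After base 1066 the remaining aligned sequence is identical:
mt-Co1, bases 1054 to 1113: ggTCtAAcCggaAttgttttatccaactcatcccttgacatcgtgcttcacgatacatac
Gm29216, bases 1 to 60: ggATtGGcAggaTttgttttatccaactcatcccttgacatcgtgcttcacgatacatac
In mt-Nd4 the copy Gm28439 is identical over bases 1 to 876 and then stops, and the capitals mark the bases past its end (chrM:11013-11072):
mt-Nd4, bases 847 to 906: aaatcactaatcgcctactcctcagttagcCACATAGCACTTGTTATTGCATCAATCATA
The 3′ ends of mt-Nd5 and mt-Nd6, which lie on opposite strands, overlap by 14 bases at chrM:13552-13565. The capitals mark that overlap, which reads in each gene as the reverse complement of the other:
mt-Nd5, last 34 bases: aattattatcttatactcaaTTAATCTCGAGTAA
mt-Nd6, last 34 bases: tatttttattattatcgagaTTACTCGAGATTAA
Without strand, reads of mt-Nd6 cannot be told from reads of a transcript that runs antisense to it on the other strand.

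Of the 10 mRNAs, 3 were not counted. mt-Co2 (ENSMUSG00000064354, chrM:7013-7696), a catalytic-core subunit of complex IV, had 0 counts in all 6 transgenic and all 5 control libraries. mt-Atp6 (ENSMUSG00000064357, chrM:7927-8607) also had 0 counts in every library of both groups. mt-Co3 (ENSMUSG00000064358, chrM:8607-9390), another core subunit of complex IV, had 0 counts in the transgenic libraries and 1 count among the controls, in control 1. A count of 0 allows up to 3 counts over a group, which is 0.0179 CPM (counts scaled to the size of the library) in the transgenic group and 0.0202 CPM in the control group, by counting error only. These are limits on reads assigned to the gene and not on the message, because almost no 50-base read from these genes is theirs alone. Of the positions at which such a read can start, 635 of 635 in mt-Co2, 629 of 632 in mt-Atp6 and 734 of 735 in mt-Co3 gave a sequence that also occurs in another annotated transcript. No value for transgenic against control CA1 can be given for these 3 mRNAs.

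The same count over the other protein-coding genes set the counted mRNAs apart from the uncounted ones. Shared starts made up 62.2% in mt-Nd4 (827 of 1329), 51.1% in mt-Co1 (765 of 1496), 8.19% in mt-Nd2 and 7.61% in mt-Nd5, and there were 0 in mt-Nd1, mt-Nd6 and mt-Cytb. mt-Nd3 and mt-Nd4l, complex I genes outside the 10, had 98.0% and 98.8% shared starts and held 5 and 0 counts over all 11 libraries. mt-Atp8, between mt-Co2 and mt-Atp6, also held 0 counts although none of its 155 starts matched an annotated transcript; sequence outside annotated transcripts was not searched, so it may be shared too, and the shares above are lower limits.

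**Figure D1:**
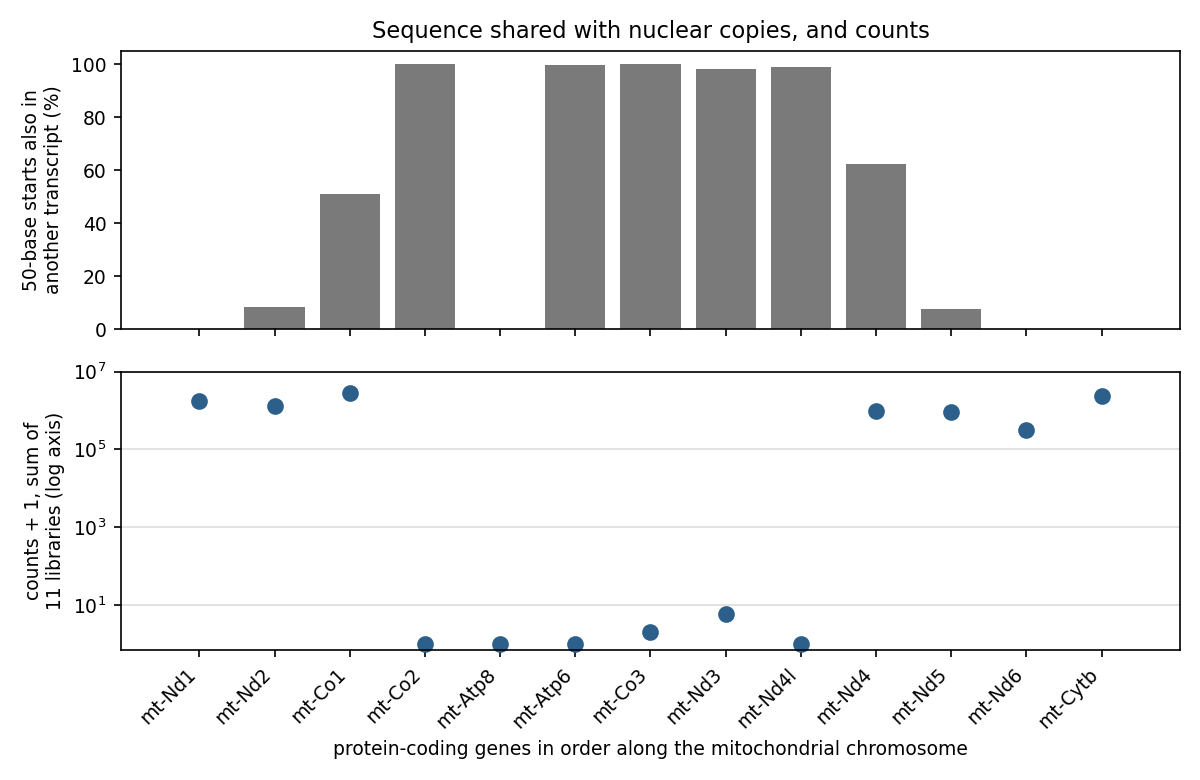
Upper panel: percent of 50-base read starts of each mitochondrial protein-coding gene that also occur in another annotated transcript. Lower panel: counts plus 1 over all 11 libraries, on a log axis. Genes from mt-Co2 to mt-Nd4l sit at or near 0 counts, mt-Atp8 included, and the 7 counted mRNAs hold from 315205 to 2884268.

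The copies on chromosome 1 held few counts. Of the 7, 6 held between 0 and 21 counts in any library. The seventh, Gm28438, the copy of mt-Nd3, held 108 to 614 counts in the transgenic libraries and 205 to 594 in the controls, while mt-Nd3 itself held 0 to 2 and 0 to 1. Over 345 aligned bases it differs from mt-Nd3 at a single position, T3C, shown in capitals:
mt-Nd3, bases 1 to 60: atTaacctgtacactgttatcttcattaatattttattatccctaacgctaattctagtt
Gm28438, bases 1 to 60: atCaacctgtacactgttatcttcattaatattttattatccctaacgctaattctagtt
Which base these mice carry in mitochondrial DNA cannot be read from count tables. In transgenic 1 to 6 Gm28438 had 4.15, 5.04, 8.10, 6.98, 13.7 and 17.5 CPM, against 15.1, 16.7, 16.1, 18.3 and 14.4 CPM in control 1 to 5. Transgenic 1 to 5 were below every control and transgenic 6 was inside the control range. Its edgeR log2 fold change of -0.79 (SE 0.30) had an adjusted p of 0.0798, and with the GC trend of each library removed (the way its counts move with transcript GC content) it was -0.22 (adjusted p 0.587).

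Total counts were 24403918 to 34153726 in the transgenic libraries and 31679533 to 36898689 in the controls except control 5, which held 14263784. Genes of the mitochondrial chromosome took 3.00% to 4.15% of them in transgenic and 3.86% to 5.03% in control libraries. The summed CPM of 5 CA1 pyramidal neuron markers, all detected, was 1052 to 1360 in transgenic and 903 to 1137 in control libraries, with none called. Among markers of other cell types, 2 of 6 for microglia and 1 of 5 for astrocytes were called higher. For endothelium 1 of 5 was called lower. Over all genes tested, 7.41% were called higher and 10.5% lower. These calls are from counts with the GC trend left in. The lists for CA3 and CA2 neurons, dentate granule neurons, oligodendrocytes, choroid plexus and heart muscle had no called gene. The summed CPM in transgenic libraries was 229 to 302 for microglia, 1402 to 1788 for astrocytes and 114 to 153 for endothelium, against 207 to 255, 1374 to 1755 and 124 to 172 in control libraries. The part of these cell types in the values below was not tested, and in bulk tissue fewer cells of a type and less RNA per cell cannot be told apart. Camk2d, the gene of the transgene, had 40.4 to 132 CPM in transgenic and 53.7 to 94.3 CPM in control CA1 (edgeR log2 fold change -0.08, SE 0.29, adjusted p 0.873), which does not check the labels of a heart-specific line.

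The 7 counted mRNAs together took 3.04% ± 0.386 of all counts in transgenic libraries and 3.61% ± 0.419 in controls (SD, n = 6 and 5). CT010467.1, annotated as ribosomal RNA, also differed between these libraries: it had 597, 838, 389, 408, 175 and 117 CPM in transgenic 1 to 6, against 112, 101, 106, 116 and 86.2 CPM in control 1 to 5. It was highest in transgenic 1 and 2, where the 7 mRNAs took the smallest share, and its part in their values was not tested. Of the 7, 3 fell in transgenic CA1 at an edgeR adjusted p under 0.05, mt-Nd2, mt-Nd5 and mt-Nd6, and none rose. All 3 are of complex I, as are 5 of the 7, and those 5 have the lowest GC content, 34.1% to 37.6%. Complex and GC content therefore cannot be told apart among the 7. With each library's GC trend removed, none was called and all 7 estimates were above 0. Over all 17293 genes tested, 10.5% fell and 7.41% rose. The 3 that fell are 42.9% of the 7, and of 1033 nuclear genes with a GC content inside the range of the 7, from 34.1% to 39.9%, 49% fell and 2 genes rose. The median log2 fold change was -0.41 over the 7 mRNAs, -0.44 over those nuclear genes and 0.01 over all genes tested. No mRNA had every transgenic library below every control, a pattern found in 4.73% of all genes. At least 4 transgenic libraries were below every control for all but mt-Co1, against 19.5% of all genes.

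As counted, the 3 mRNAs that fell were of complex I, and with the GC trend removed each stood above 0 and uncalled. mt-Nd2 (ENSMUSG00000064345, chrM:3914-4951) encodes a membrane subunit of its proton-pumping arm. In transgenic 1 to 6 it had 2548, 2641, 3234, 3085, 4323 and 4363 CPM, against 4276, 4393, 4884, 5862 and 4313 CPM in control 1 to 5. Transgenic 1 to 4 lay below every control, while transgenic 5 and 6 lay at the lower end of the control range. It averaged 3366 ± 800 CPM in transgenic and 4746 ± 670 CPM in control CA1 (SD), and the edgeR log2 fold change was -0.50 (SE 0.15, adjusted p 0.0345), or 0.05 (SE 0.07, adjusted p 0.740) once the GC trend was removed.

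mt-Nd5 (ENSMUSG00000064367, chrM:11742-13565), the longest of the messages and another pumping subunit, had 2215, 2182, 2398, 2664, 2786 and 3095 CPM in transgenic 1 to 6, against 2988, 3024, 3488, 4204 and 3275 CPM in control 1 to 5. Only transgenic 6 reached the control range. The means were 2557 ± 357 CPM in transgenic and 3396 ± 495 CPM in control CA1 (SD). The edgeR log2 fold change was -0.41 (SE 0.11, adjusted p 0.0228), and 0.08 (SE 0.06, adjusted p 0.491) with the GC trend removed.

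mt-Nd6 (ENSMUSG00000064368, chrM:13552-14070) is the one message of the set on the opposite strand, and encodes a membrane subunit of complex I. Because the kit does not mark the strand, counts of mt-Nd6 may hold reads of a transcript antisense to it. The levels of mt-Nd6 in transgenic 1 to 6 were 661, 625, 763, 897, 1015 and 1066 CPM, against 941, 1052, 1231, 1491 and 1054 CPM in control 1 to 5. Transgenic 1 to 4 were again below every control, and the groups overlapped through transgenic 5 and 6. The means were 838 ± 184 and 1154 ± 215 CPM in transgenic and control CA1 (SD), with an edgeR log2 fold change of -0.46 (SE 0.15, adjusted p 0.0488) that became 0.19 (SE 0.08, adjusted p 0.211) without the GC trend.

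mt-Nd1 (ENSMUSG00000064341, chrM:2751-3707), a subunit next to the quinone-binding site of complex I, stood just outside the threshold. It had 3711, 3802, 4361, 4610, 6222 and 6023 CPM in transgenic 1 to 6 and 5793, 6043, 6418, 7625 and 5977 CPM in control 1 to 5. Transgenic 5 and 6 were inside the control range here, and the other 4 below it. The edgeR log2 fold change was -0.41 (SE 0.14, adjusted p 0.0502), and 0.04 (SE 0.06, adjusted p 0.826) with the GC trend removed.

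For mt-Nd4 (ENSMUSG00000064363, chrM:10167-11544), a pumping subunit of complex I of which 62.2% of read starts are shared, the groups lay closer. It had 2609, 2730, 2854, 2678, 3099 and 2847 CPM in transgenic 1 to 6, against 2880, 2951, 3316, 3957 and 2861 CPM in control 1 to 5. Every transgenic library except transgenic 5 was below every control, transgenic 3 and 6 by small margins. The edgeR log2 fold change was -0.19 (SE 0.08, adjusted p 0.127), against 0.41 (SE 0.11, adjusted p 0.0710) with the GC trend removed.

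**Figure D2:**
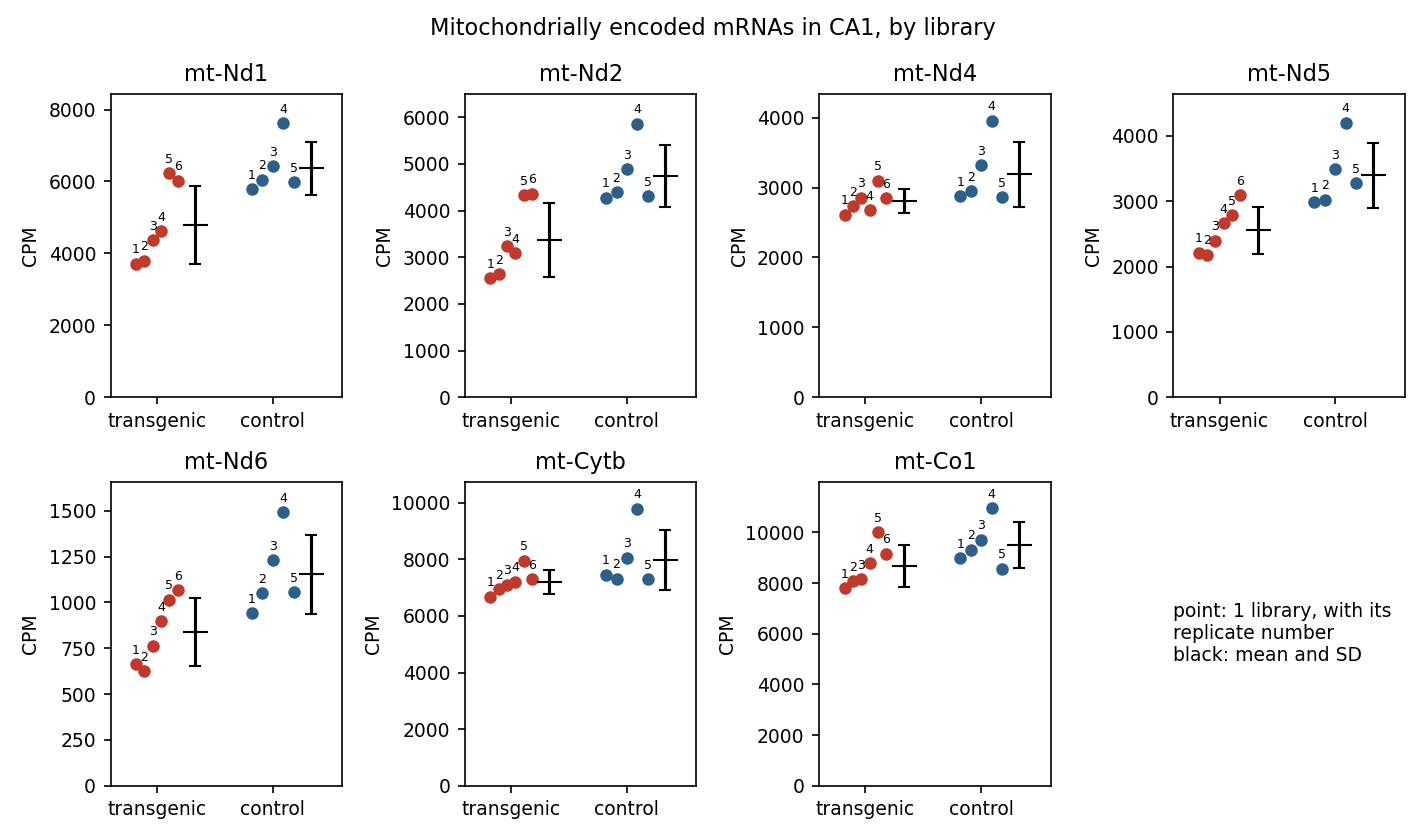
CPM of the 7 counted mRNAs in each library (1 point per library, labelled with its replicate number), transgenic in red and control in blue, with the mean and SD of each group in black. The groups overlap in every panel, with transgenic 5 or 6 inside the control range and control 4 the highest library.

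The counted messages of complexes III and IV had the smallest differences as counted, and stood above 0 with the GC trend removed. mt-Cytb (ENSMUSG00000064370, chrM:14145-15288), the catalytic cytochrome of complex III, had 6681, 6940, 7105, 7215, 7952 and 7297 CPM in transgenic 1 to 6, against 7456, 7323, 8066, 9788 and 7296 CPM in control 1 to 5. Transgenic 5 exceeded 3 of the 5 controls. Its edgeR log2 fold change was -0.15 (SE 0.08, adjusted p 0.189), and 0.25 (SE 0.08, adjusted p 0.109) with the GC trend removed.

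mt-Co1 (ENSMUSG00000064351, chrM:5328-6872), the subunit of complex IV that binds and reduces oxygen, had 7797, 8062, 8149, 8784, 10016 and 9153 CPM in transgenic 1 to 6, against 8986, 9321, 9716, 10944 and 8565 CPM in control 1 to 5. Transgenic 1, 2 and 3 were below every control and the other 3 were within the control range. The edgeR log2 fold change was -0.13 (SE 0.08, adjusted p 0.234), and 0.22 (SE 0.06, adjusted p 0.0776) with the GC trend removed. The 95% interval of the value as counted runs from -0.29 to 0.02.

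**Figure D3:**
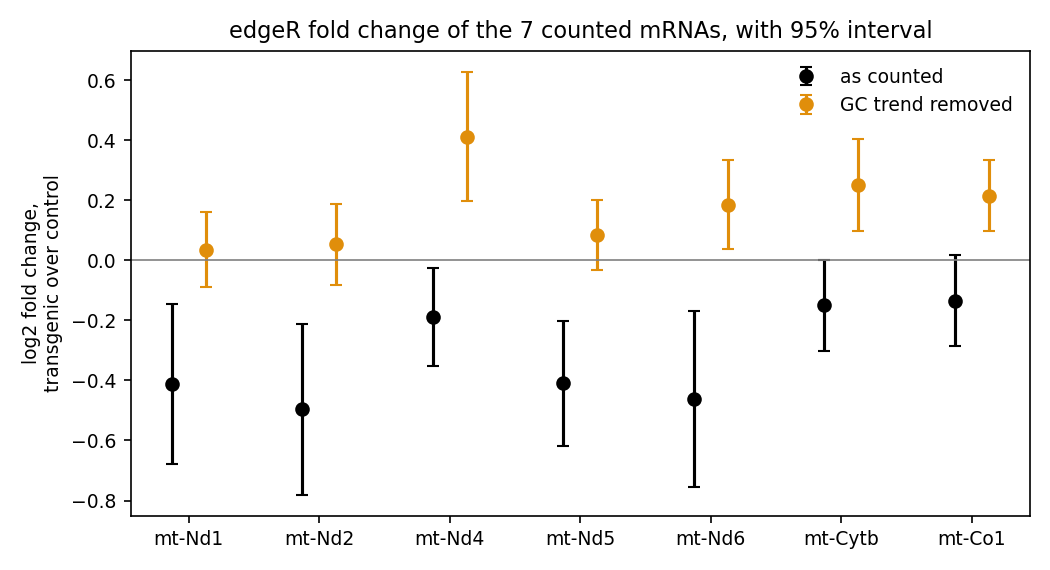
edgeR log2 fold change, transgenic over control, of the 7 counted mRNAs with 95% intervals, from the counts as deposited (black) and with each library's GC trend removed (orange). The 7 black points lie between -0.50 and -0.13, and the 7 orange points lie between 0.04 and 0.41, on the other side of 0.

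Leaving out single libraries changed the calls. mt-Nd5 was called in 7 of 11 fits that left out a library each, and lost its call without control 3, control 4, transgenic 2 or transgenic 3, at -0.40, -0.32, -0.37 and -0.39. mt-Nd2 and mt-Nd6 were each called in 3 of 11: neither was called without control 3, control 4, control 5 or any of transgenic 1 to 4, nor mt-Nd2 without control 1 and mt-Nd6 without control 2, and the lost values were -0.53 to -0.41 for mt-Nd2 and -0.49 to -0.35 for mt-Nd6. Without transgenic 5 or transgenic 6, mt-Nd1 was called too, at -0.50 and -0.49. The authors' deposited table of lower genes lists mt-Nd5 (-0.41, adjusted p 0.00353), mt-Nd2 (-0.49, adjusted p 0.00811), mt-Nd6 (-0.46, adjusted p 0.0155) and mt-Nd1 (-0.41, adjusted p 0.0197), and not the other 3 counted mRNAs, with log2 fold changes of transgenic over control.

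GC content set these mRNAs apart from most of the transcriptome. It was 34.1% in mt-Nd6, 35.6% in mt-Nd4, 35.7% in mt-Nd2, 37.1% in mt-Nd5, 37.6% in mt-Nd1, 39.1% in mt-Cytb and 39.9% in mt-Co1, against a median of 49.6% over the genes tested. Of those genes, 6.37% had a GC content below that of mt-Co1. Each library's counts moved with GC content: the slope of the log2 deviation from the mean of all libraries, per 10 GC points, was 0.274, 0.259, 0.176, 0.0989, 0.0165 and -0.0607 in transgenic 1 to 6, against -0.119, -0.0617, -0.201, -0.22 and -0.161 in control 1 to 5. All transgenic slopes lay above all control slopes, with transgenic 6 next to control 2. The libraries with the steepest positive slopes, transgenic 1 and 2, had the lowest share of counts in the 7 mRNAs, 2.62% and 2.71%, and control 4, with the steepest negative slope, had the highest, 4.30%.

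**Figure D4:**
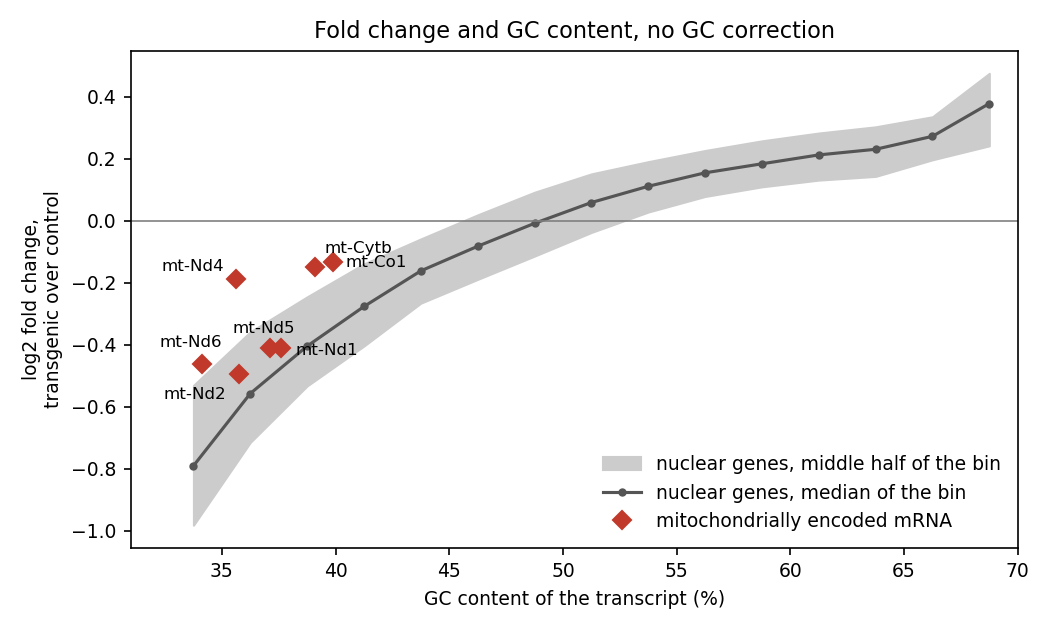
log2 fold change, transgenic over control, against transcript GC content without GC correction. The line joins the medians of nuclear genes in bins of 2.5 GC points and the band holds their middle 50%; the 7 mitochondrially encoded mRNAs (red) lie at or above the line at the AT-rich end, and their sign turns with the GC trend removed.

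Nuclear genes in the bin from 35% to 37.5% GC (265 genes) had a median log2 fold change of -0.56, and those from 37.5% to 40% (787 genes) of -0.40. mt-Nd2, at -0.50, and mt-Nd5, at -0.41, lay inside the middle 50% of the lower of these bins, and mt-Nd1, at -0.41, inside that of the higher one. mt-Nd4, at -0.19, mt-Cytb, at -0.15, and mt-Co1, at -0.13, lay above the middle 50% of their bins. So did mt-Nd6, at -0.46, in the bin from 32.5% to 35% GC (65 genes, median -0.79, upper quartile -0.53). In bins above 50% GC the medians were positive, reaching 0.38 from 67.5% to 70% GC. With a lowess trend on GC content removed from each library, 1.98% of all genes were called, 0.821% lower and 1.16% higher, and the nuclear genes in the GC range of the 7 mRNAs had a median of -0.03. The median over the 7 mRNAs was then 0.19.

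After that correction the transgenic libraries lay high for mt-Nd4. On the corrected log2 CPM scale they had 11.91, 11.95, 11.85, 11.62, 11.61 and 11.28, against 11.27, 11.34, 11.30, 11.52 and 11.09 in control 1 to 5. Transgenic 1 to 5 were above every control and transgenic 6 lay within their range. For mt-Co1 the corrected values were 13.28, 13.31, 13.22, 13.24, 13.29 and 13.05 in transgenic 1 to 6 and 13.00, 13.08, 12.99, 13.16 and 12.84 in control 1 to 5, again with transgenic 6 alone inside the control range. Without transgenic 6, a fit chosen after seeing the data, mt-Nd4, mt-Co1 and mt-Cytb rose with the GC trend removed, at an edgeR adjusted p down to 0.00799, and 942 genes were called in all. The uncorrected values of these 3 mRNAs were all below 0, and the group's GC slopes and its genotype cannot be told apart in this design. For mt-Nd4, part of whose reads cannot be told from its copy, the GC content of the unmatched part is 37.8%, and a trend taken at that value gave 0.28 in place of 0.41.

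The balance among the 7 mRNAs does not depend on how libraries are scaled. mt-Co1 made up 28.8% ± 1.09 of their counts in transgenic and 26.2% ± 0.961 in control CA1, and mt-Cytb 24.0% ± 1.67 and 22.0% ± 0.385 (SD). mt-Nd1 made up 15.7% ± 1.63 in transgenic and 17.5% ± 0.271 in control libraries, and mt-Nd2 11.02% ± 1.32 and 13.0% ± 0.221. The share of mt-Nd4 was 9.34% ± 0.727 and 8.77% ± 0.197, of mt-Nd5 8.46% ± 0.485 and 9.33% ± 0.405, and of mt-Nd6 2.75% ± 0.312 and 3.16% ± 0.224 (SD). These differed less in percentage points, and they are the smaller shares. All 7 shares overlapped between the groups. The shares of mt-Co1 and mt-Cytb, the 2 mRNAs with the highest GC content, were larger in transgenic libraries. So was the share of mt-Nd4, which has a GC content of 35.6%. The part of GC content in these shares was not tested.

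Counts of the 5 complex I mRNAs relative to mt-Cytb and mt-Co1 together were 0.811, 0.798, 0.892, 0.871, 0.971 and 1.06 in transgenic 1 to 6, against 1.03, 1.05, 1.09, 1.12 and 1.10 in control 1 to 5. Transgenic 1 to 5 were below every control and transgenic 6 was within the control range. The control SD was 0.0374 and the transgenic SD 0.0989, so the transgenic libraries spread further among themselves. The 5 complex I mRNAs are also those with the lowest GC content of the 7, so complex and GC content cannot be told apart in this ratio. The mitochondrial ribosomal RNAs, mt-Rnr1 and mt-Rnr2, took 14.2% ± 1.05 of the counts of the 7 mRNAs and themselves in transgenic and 14.5% ± 0.740 in control libraries (SD), a difference smaller than either SD.

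**Figure D5:**
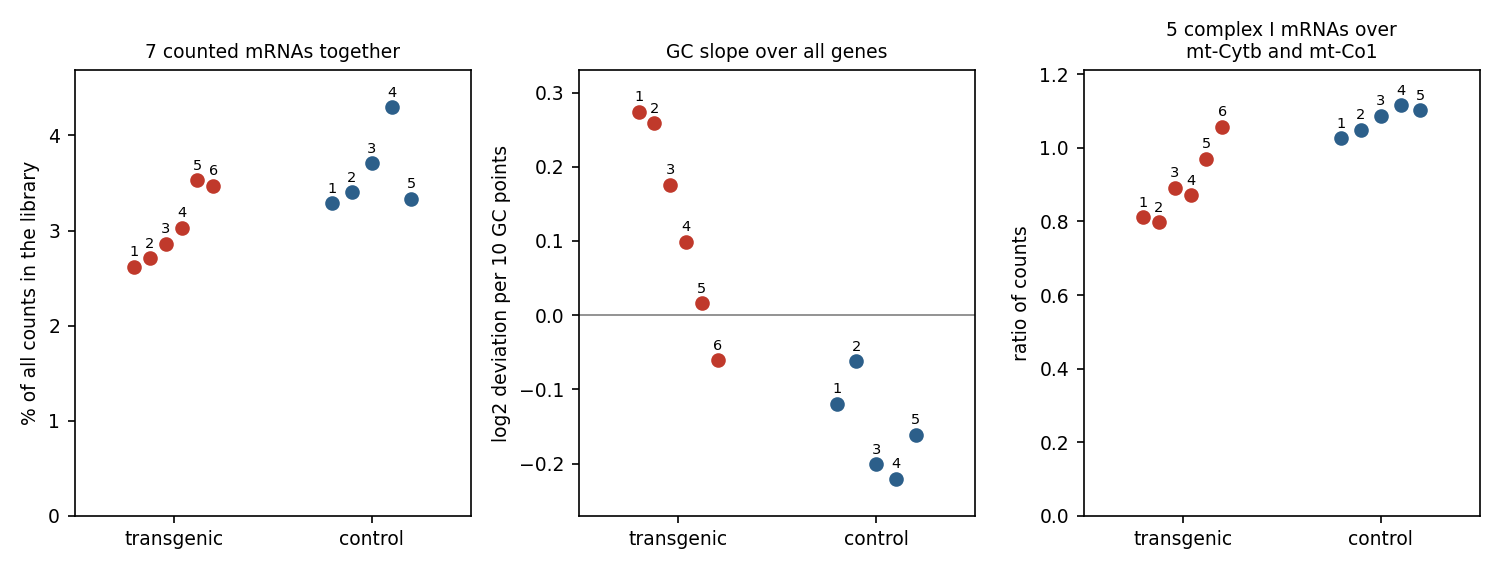
By library, labelled with its replicate number, transgenic left (red) and control right (blue): percent of all counts in the 7 counted mRNAs, slope of log2 deviation on GC content, and the ratio of complex I mRNAs to mt-Cytb plus mt-Co1. The share and the ratio are lowest in transgenic 1 and 2, where the slopes are highest, 0.274 and 0.259, and transgenic 6 lies next to the controls in all 3 panels.

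Per kilobase of the whole gene mt-Cytb had the highest level. Per kilobase of read starts that match no other annotated transcript, mt-Co1 did, above mt-Cytb in all 11 libraries. Over all 11 libraries mt-Cytb averaged 6605 CPM per kilobase (SD 734), mt-Co1 5854 (SD 604), mt-Nd1 5755 (SD 1277), mt-Nd2 3847 (SD 973), mt-Nd4 2163 (SD 275), mt-Nd6 1891 (SD 482) and mt-Nd5 1611 (SD 326). mt-Co1 exceeded mt-Nd1 in 4 of 11 libraries, so those neighbours had no fixed order: mt-Co1 averaged 5605 and mt-Nd1 5003 CPM per kilobase in transgenic libraries, against 6153 and 6657 in controls. By contrast, each other neighbour stood in the same order in 10 or 11 libraries. The order rests on what could be counted. Had all counted reads come from the starts that match no other annotated transcript, which the sources do not say, the CPM per kilobase of such starts would put mt-Co1 first at 12373, followed by mt-Cytb at 6901, mt-Nd1 at 6066, mt-Nd4 at 5937, mt-Nd2 at 4398, mt-Nd6 at 2088 and mt-Nd5 at 1792. Of the 7, 3 kept their place, and mt-Nd1 exceeded mt-Nd4 in 7 of 11 libraries.

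The 7 mRNAs varied together across libraries: Pearson's r between their log2 CPM was 0.792 (mt-Nd1 and mt-Nd4) to 0.992 (mt-Nd1 and mt-Nd2), with a median of 0.888 over 21 pairs and 11 libraries. These are descriptions, since the values share libraries, scaling and low GC content. Among 10603 nuclear genes with a mean log2 CPM of at least 3, those with the highest r to the mean of the 7 were Ube2a, a ubiquitin-conjugating enzyme, at 0.979, then Tmem135, Rsrc2, Smchd1 and Ufm1, a ubiquitin-like modifier, at 0.972 or more. Their GC content was 38.4% to 44.1%. Those with the most negative r were Rps6kl1 at -0.955, Fbrsl1, Zfp219, Zswim4 and Med25 at -0.947, with a GC content of 57.0% to 62.1%. The candidates' median was 49.7%.

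Of the other genes of the mitochondrial chromosome, 15 were tested, all with estimates below 0, and 3 of them fell, all transfer RNAs with few counts; 10.5% of all genes and 49% of nuclear genes in the GC range of the 7 mRNAs fell. With the GC trend removed, 5 of the 15 estimates were above 0 and 1 gene, mt-Rnr1, rose, where 1.16% of all genes did. mt-Ts2, a serine transfer RNA, had 0 to 0.332 CPM in transgenic and 0.353 to 1.40 CPM in control libraries (edgeR log2 fold change -2.08, SE 0.51, adjusted p 0.0189). mt-Tl2, a leucine transfer RNA, was at -1.34 (adjusted p 0.0300) and mt-Ti, an isoleucine transfer RNA, at -1.08 (adjusted p 0.0451). With the GC trend removed these stood at -1.43, -0.63 and -0.21 and none was called. Other transfer RNA genes, none called, were mt-Tf at -0.86, mt-Te at -0.47, mt-Tp at -0.44, mt-Tq at -0.32, mt-Tl1 at -0.17 and mt-Tm at -0.03, with mt-Tt at -0.59, mt-Ta at -1.18, mt-Tn at -1.15 and mt-Tc at -1.15. mt-Rnr1, the small ribosomal RNA, was at -0.21 (adjusted p 0.225) as counted and at 0.35 (adjusted p 0.0419) with the GC trend removed, and mt-Rnr2, the large one, at -0.35 (adjusted p 0.0941) and 0.23 (adjusted p 0.127).

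The nuclear genome encodes the other subunits of the same complexes, and many of these were higher in transgenic CA1. Of 31 such partners in complexes I, III, IV and V, 17 rose and none fell (54.8%, against 7.41% higher over all genes), with a median log2 fold change of 0.20; with the GC trend removed 11 rose and none fell, at a median of 0.17, against 1.16% higher over all genes. The calls after correction were lost, as were those of every gene, in 8 of 11 fits that left out a library each (control 1, 3, 4 or 5, or transgenic 1, 2, 3 or 4). Their median GC content was 50.2%, taken from the longest annotated transcript of each gene. The part of that choice in the corrected values was not tested. In complex I, 5 of 7 core subunits rose, among them Ndufs7, which carries the last iron-sulfur cluster before the quinone, by 0.36 (SE 0.06, adjusted p 0.0111), and Ndufs8 by 0.30. Ndufs7 had 88.8 ± 5.98 CPM in transgenic and 69.0 ± 6.03 CPM in control CA1 (SD), without overlap, and remained at 0.17 (adjusted p 0.0387) with the GC trend removed. Of the 7, 2 were called after that correction, Ndufs7 and Ndufv2, a flavoprotein subunit, which was at 0.00 before it and 0.25 after it.

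In complex III, 3 of 6 partners rose before and 3 after the GC correction, but Uqcrq was the only gene in both. Uqcrq, a small structural subunit, had 80.8 ± 7.42 CPM in transgenic and 63.7 ± 4.05 CPM in control CA1 (SD), at 0.34 (adjusted p 0.0123) as counted and 0.31 (adjusted p 0.0314) corrected. Cyc1, cytochrome c1, rose by 0.24 and Uqcrc1, a core protein, by 0.20 as counted, and stood at 0.03 and 0.10 corrected, neither called. In complex IV, 6 of 10 rose as counted, among them, by smallest p, Cox6a1 at 0.36, Cox8a at 0.33 and Cox4i1 at 0.26, structural subunits with a GC content of 58.0% or more, and Cox6b1 at 0.29 and Cox7a2 at 0.26, with 51.0% and 51.9%. Corrected, the first 3 were at 0.12, 0.14 and 0.08 and were not called, and the 3 that rose were Cox5a, Cox7b and Cox7c. Of these, only Cox5a was also called as counted, at 0.16 (edgeR adjusted p 0.0332), and it stood at 0.43 (adjusted p 0.0314) corrected. In complex V, 3 of 8 rose as counted: Atp5d, the delta subunit of F1, at 0.33, Atp5e, the epsilon subunit, at 0.29 and Atp5o, which joins F1 to the stalk, at 0.24. Atp5e and Atp5o were called after correction as well, at 0.27 and 0.29 (adjusted p 0.0314 and 0.0341), and so was Atp5f1, a subunit of the stalk, at 0.48 (adjusted p 0.0314), which had been at -0.03 before it. In complex II, which has no mitochondrially encoded subunit, Sdhc and Sdhb of 4 rose, by 0.23 and 0.16, Sdhd stood at 0.10 uncalled, and only Sdhc was called after correction, at 0.23.

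Nuclear genes that make and process the mitochondrial messages were called in both directions, against 10.5% lower and 7.41% higher over all genes. Of 18 for replication and transcription of mitochondrial DNA, 1 rose and 1 fell, with a median of -0.08: Polrmt, the mitochondrial RNA polymerase, rose by 0.22 (adjusted p 0.0265), and Mterf3, a negative regulator of mitochondrial transcription, fell by 0.33 (adjusted p 0.0447). Corrected for GC content, these were at 0.02 and -0.10 and no gene of the list was called. Mterf1a, which binds a termination site in mitochondrial DNA, was at -0.47 (adjusted p 0.0514). Of 19 for processing, polyadenylation and stability of mitochondrial RNA, 2 rose and 4 fell, and none was called after correction. Pnpt1, which degrades mitochondrial RNA, fell by 0.39 (adjusted p 0.0178), Fastkd1, of a family of mitochondrial RNA regulators, fell by 0.24 (adjusted p 0.0217), and Hsd17b10, a subunit of mitochondrial RNase P, rose by 0.26 (adjusted p 0.0270); corrected, they were at -0.04, -0.18 and 0.20.

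Of 8 regulators of mitochondrial biogenesis, 3 fell and none rose, where 10.5% of all genes fell and 7.41% rose. Gabpa, a transcription factor of nuclear-encoded respiratory genes, fell by 0.46 (adjusted p 0.0125) to 22.7 ± 2.5 CPM in transgenic CA1, against 31.2 ± 4.08 CPM in controls (SD). Ppargc1a, which encodes the coactivator PGC-1alpha, fell by 0.34 (adjusted p 0.0250), and Yy1, a general transcription factor, by 0.14 (adjusted p 0.0391). Corrected for GC content, Gabpa and Ppargc1a were at -0.19 and -0.09 and were not called, and Yy1, the only one called, was at -0.19 (adjusted p 0.0404). Of 7 markers of mitochondrial mass, Phb2, a scaffold protein of the inner membrane, rose by 0.21 (adjusted p 0.0217) and stood at 0.11 uncalled after correction, whereas Cs, citrate synthase, and Phb were at 0.10 (adjusted p 0.108) and 0.16 (adjusted p 0.127). Immt, a scaffold of the cristae, was the gene of that list called after correction, at 0.35, and had been at -0.01 before it; it is named after its values were seen, as are Ndufv2, Uqcrc2, Uqcrb, Cox5a, Cox7b, Cox7c, Cox6b1, Cox7a2 and Atp5f1. Uqcrc2 and Uqcrb were the other 2 of complex III that rose after correction, at 0.23 and 0.38.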

How the data were processed

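RNA from hippocampal CA1 of 6 CamkdeltaC transgenic and 5 control samples was sequenced. The deposited tables hold raw read counts per gene for each library, made by the authors. The submitters' processing notes name FastQC 0.11.5, STAR 2.5.2b, featureCounts, Subread 1.5.1 and mm10; for reads that match several places, no rule is given in the sources used here. Comparison tables deposited by the authors also give the authors' log2 fold changes, p-values and normalised signal, the last used only to check that each table's size factor is constant. All 48709 identifiers were read, of which 48349 have a GENCODE M21 name.

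Counts were tested with edgeR 4.0.16 (R 4.3.3): TMM scaling, filterByExpr, the quasi-likelihood F test and Benjamini-Hochberg adjustment over the 17293 genes kept, which hold 99.9% of counts. Calls are at an adjusted p under 0.05, and "rose" and "fell" are used of calls only. CPM is TMM-scaled. For the GC correction, a lowess curve (span 0.3) of each library's log2 deviation on transcript GC content entered the fit as an offset. It covered the 17246 genes with a GC value. GC content was taken from the longest annotated transcript of each gene, which need not be the one expressed in CA1. Fits were first tested on simulated data in which all libraries of a group had the same GC slope. The slopes measured here differed within groups, so that simulation does not cover them. Every 50-base stretch of each mitochondrial gene was searched, on both strands, in all other GENCODE M21 transcripts. Alternatives used DESeq2 1.42.0 and limma 3.58.1. No library was a duplicate of another of its group: chi-square divided by its degrees of freedom was 6.24 to 49.0 between pairs. The mRNAs, gene lists and tests were chosen with earlier results of these data known. Genes named are all 10 mRNAs, all other tested mitochondrial genes, up to 3 of each list by smallest p, the 5 nuclear genes at each end of the correlation with the mean of the 7, the ribosomal RNA list and Camk2d. One gene that this rule names is not reported here.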

Additional observations from a re-analysis of the deposited data

Results flagged for a closer look

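Dixon's test for a library far from the rest of its group was applied to 84 sets of values, and chance alone flags about 1 in 20 such sets. In the transgenic group, transgenic 6 had 0.942 CPM of mt-Tl2, far above the next library at 0.332 CPM. Among the controls, the summed CPM of the CA3 and CA2 pyramidal neuron markers was 111 in control 3, against 78.0 in the next highest library. None of the 7 counted respiratory mRNAs had a library that stood apart in this way; the other 3, with 0 or 1 count, were not checked.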

How the results depend on the processing

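With the GC trend removed, the log2 fold changes of mt-Nd1, mt-Nd2, mt-Co1, mt-Nd4, mt-Nd5, mt-Nd6 and mt-Cytb turned to 0.035, 0.053, 0.22, 0.41, 0.085, 0.19 and 0.25, and 342 genes and 0 of the 7 mRNAs were called. In the same order they were 0.038, 0.057, 0.22, 0.42, 0.088, 0.19 and 0.25 with the trend fitted on nuclear genes (349 genes called), -0.02, 0.0025, 0.17, 0.37, 0.048, 0.14 and 0.20 with a length trend removed too (294), and -0.0016, -0.0080, 0.20, 0.35, 0.040, 0.10 and 0.23 with a span of 0.7 (361). With GC content taken from unmatched bases, chosen after seeing the data, they were 0.033, 0.039, 0.26, 0.28, 0.083, 0.11 and 0.22 (342). None of the 7 was called in these fits; at an unadjusted p under 0.05, 4 would be with the GC trend removed (mt-Co1, mt-Nd4, mt-Nd6 and mt-Cytb). Same-numbered transgenic and control libraries deviated with correlations of -0.185 to 0.197, which do not settle whether the numbers pair them. A block for replicate number gave 4594 genes and 4 of the 7 mRNAs, mt-Nd1 being called at -0.51. Transgenic 6 has no control of its number, so in a block fit it adds nothing to the difference between transgenic and control. The block with the GC trend removed, chosen after seeing the data, gave 0.035, 0.063, 0.25, 0.49, 0.11, 0.22 and 0.31. It called 746 genes, with mt-Co1, mt-Nd4 and mt-Cytb higher. mt-Nd1 was also called at -0.41 with CPM above 1 in 5 libraries and with DESeq2 (3883 genes called), at -0.46 with Xist as a covariate and at -0.47 with limma voom (4774 genes called). mt-Nd6 lost its call at -0.46 with DESeq2 size factors, with no filter on low counts and with scaling by nuclear genes. Leaving out each library in turn gave -0.50 to -0.34 for mt-Nd1, -0.58 to -0.41 for mt-Nd2, -0.18 to -0.08 for mt-Co1, -0.22 to -0.10 for mt-Nd4, -0.47 to -0.32 for mt-Nd5, -0.54 to -0.35 for mt-Nd6 and -0.18 to -0.07 for mt-Cytb. It gave 1155 genes called (without control 4) to 4712 (without transgenic 6), with 0 of the 7 mRNAs called without control 3, control 4, transgenic 2 or transgenic 3 and 4 without transgenic 5 or transgenic 6. With the GC trend removed, leaving out single libraries gave 0 genes called in 8 of 11 fits (without control 1, 3, 4 or 5 or transgenic 1, 2, 3 or 4), 308 without transgenic 5, 513 without control 2 and 942 without transgenic 6, and mt-Co1, mt-Nd4 and mt-Cytb were called without transgenic 6 alone. Per unmatched read start, 3 of the 7 kept their place in the order of levels. Upper-quartile scaling changed no call of the 7 mRNAs (3235 genes called). The causes of these shifts were not tested. The limit from 0 counts covers counting error only.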

Other observations

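The transfer RNA genes mt-Ta, mt-Tn and mt-Tc lie side by side on the strand opposite to most messages, between mt-Nd2 and mt-Co1, and were low in transgenic 1 to 4. As the kit does not mark the strand, their counts may hold reads of a transcript antisense to them. Next to mt-Tc on the same strand, mt-Ty had 0 counts in every library. mt-Tc, a cysteine transfer RNA, had 2.15, 2.63, 3.60, 4.19, 13.2 and 14.5 CPM in transgenic 1 to 6, against 14.1, 13.1, 16.1, 17.9 and 14.3 CPM in control 1 to 5. mt-Ta, an alanine transfer RNA, had 1.31, 1.66, 1.94, 2.16, 7.04 and 10.3 CPM in transgenic 1 to 6, against 7.78, 8.84, 12.5, 10.8 and 6.73 CPM in control 1 to 5. In both, transgenic 1 to 4 were low and transgenic 5 and 6 lay within the control range. mt-Tn, an asparagine transfer RNA, had the same 4 libraries below every control at under 1 CPM. None was called by edgeR, with log2 fold changes of -1.15 for mt-Tc (adjusted p 0.0750), -1.18 for mt-Ta (adjusted p 0.0886) and -1.15 for mt-Tn (adjusted p 0.140). With the GC trend removed they stood at -0.74, -0.65 and -0.60 (adjusted p 0.255, 0.342 and 0.507), and 10 of the 15 other tested mitochondrial genes stayed below 0.

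Of 6 tested transcripts that are, or share sequence with, ribosomal RNA, 4 rose (7.41% of all genes did): Mir6236 by 2.24, CT010467.1 by 2.01, Lars2 by 1.32 and Gm26917 by 1.29 on the log2 scale, at edgeR adjusted p of 0.0111 to 0.0144. For CT010467.1, all 6 transgenic libraries were above every control, transgenic 6 by the smallest margin. With the GC trend removed, Mir6236, CT010467.1 and Lars2 were at 2.06, 1.84 and 1.25 and still called. Gm26917 was at 0.93 with an adjusted p of 0.0730. The other 2 tested, mt-Rnr1 and mt-Rnr2, were at -0.21 and -0.35 as counted. With the GC trend removed they were at 0.35 and 0.23, and mt-Rnr1 was called (edgeR adjusted p 0.0419). Gm42418 and AY036118 had 0 counts.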
